A study of Homo sapiens with 6 samples.

Results

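The 99 genes described here were the LINC-named long noncoding RNAs that were expressed in HEL cells, a human erythroleukemia cell line grown in RPMI with serum. They were chosen by name and by level: the name is LINC followed directly by a number, and the mean level over the 6 sequenced libraries was at least 0 on the log2 scale of CPM, that is, at least 1 CPM. CPM is the number of fragments counted for a gene, scaled to a common library total. Of 31999 genes listed, 696 had such a name and 14000 reached the level, and 99 did both. The 6 libraries came from 3 samples with shCtrl, a non-targeting control hairpin, and 3 with shTMIGD2, a hairpin against the immune receptor gene TMIGD2. Hairpins were delivered by pLKO.1 lentivirus for stable knockdown, and the labels do not say which of the study's TMIGD2 hairpins was used. Poly(A) RNA was enriched from total RNA before directional libraries were made. The labels call the samples biological replicates and give no treatment, time point or genotype other than the hairpin.

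The level is the authors' mean over both groups, with no value for a library or a group, so that no spread, interval or test could be given with it. Depth per library and the level of TMIGD2 in each sample were for the same reason not known, and TMIGD2, the targeted gene, had a mean of 4.08 log2 CPM over all libraries. A change between shCtrl and shTMIGD2 was not analysed here. The order of neighbouring genes in level therefore says nothing on whether they differ beyond replicate error. The label of the cell line was checked against marker genes. All 9 erythroid and megakaryocyte genes looked up lay at 5.83 log2 CPM or higher, led by ITGA2B, a platelet integrin subunit, at 10.54 and GATA2, a blood progenitor transcription factor, at 10.14, with HBG1, a fetal globin, at 9.72. Of 7 genes of B cells, T cells, liver, epithelium and fibroblasts, 5 were listed and none reached 0, with COL1A1 the highest at -0.80.

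Long intergenic noncoding RNAs are made by RNA polymerase II and are capped, spliced and mostly polyadenylated like messenger RNAs, but hold no long conserved reading frame. LINC followed by a number is a placeholder symbol for such a gene when no function, host role or coding neighbour has given it a better name. Known examples act on the chromatin of a neighbouring gene, bind proteins or microRNAs, or are only the precursor of a small RNA, and for most no function has been established. In blood cells many of them are expressed in a lineage-restricted way and at low levels.

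Promoters and small RNAs were where these genes could be read at the level of sequence. The promoters of 3 members are printed first, from 250 bases before to 50 bases after the RefSeq start on GRCh38.p14, because they are examples of the CpG-rich promoter of the member with the most counts, of a start shared with a coding gene and of an AT-rich promoter. LINC01578 is at chr15:92882593-92882892 on the plus strand, with GGGCGG and CCAAT in capitals. LINC01547 is at chr21:44939864-44940163 on the minus strand, with GGGCGG and CCGGAA in capitals on either strand. LINC01934, the longest member by its GENCODE transcript, is at chr2:181123587-181123886 on the plus strand, with TATAAA in capitals. The GENCODE genes of LINC01578 and LINC01934 start upstream of these windows, at 92819540 and 181086076.
LINC01578: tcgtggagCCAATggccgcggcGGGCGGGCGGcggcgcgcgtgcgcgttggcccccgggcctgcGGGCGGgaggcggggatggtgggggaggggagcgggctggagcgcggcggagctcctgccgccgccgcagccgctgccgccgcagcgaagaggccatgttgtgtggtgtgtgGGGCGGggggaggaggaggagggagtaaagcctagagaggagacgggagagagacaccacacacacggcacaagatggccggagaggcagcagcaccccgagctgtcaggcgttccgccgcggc
LINC01547: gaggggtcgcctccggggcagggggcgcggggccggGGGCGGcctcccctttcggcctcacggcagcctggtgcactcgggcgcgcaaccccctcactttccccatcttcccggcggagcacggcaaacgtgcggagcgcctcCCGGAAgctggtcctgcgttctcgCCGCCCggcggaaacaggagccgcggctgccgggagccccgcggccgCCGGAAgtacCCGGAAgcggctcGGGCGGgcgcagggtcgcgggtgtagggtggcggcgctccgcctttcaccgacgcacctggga
LINC01934: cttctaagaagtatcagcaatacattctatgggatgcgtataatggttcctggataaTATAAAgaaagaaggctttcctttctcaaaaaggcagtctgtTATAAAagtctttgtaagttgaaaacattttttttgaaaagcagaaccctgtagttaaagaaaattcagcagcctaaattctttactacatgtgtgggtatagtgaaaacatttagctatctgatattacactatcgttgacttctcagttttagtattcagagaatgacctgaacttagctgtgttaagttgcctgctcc

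The palindrome TGACGTCA, the full site for transcription factors of the CREB family, was in the promoters of 3 members. It is shown in capitals in windows of 30 bases because CREB is a factor the study examined. LINC00630 is at chrX:102769115-102769144 on the plus strand, LINC02606 at chr1:9428973-9429002 on the minus strand and LINC00265 at chr7:39733359-39733388 on the plus strand. The first base of the palindrome was at -27 from the RefSeq start of LINC00630, at 5 for LINC02606 and at -198 for LINC00265. In GENCODE LINC02606 begins at 9440564, upstream of that RefSeq start. All 3 members lay just above the threshold of 0 and below the alternative of 1 log2 CPM. Their levels were 0.22 (LINC00630), 0.19 (LINC02606) and 0.12 (LINC00265).
LINC00630: ccatagtaaccTGACGTCAtattagcgacg
LINC02606: gcgctctcagaTGACGTCAcacacccgcgg
LINC00265: cccagctaccgTGACGTCAcgagacccccg

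A microRNA gene lay in the GENCODE span of 3 members. The mature sequences are given with the seed, bases 2 to 8, in capitals. MIR9-2 (chr5:88666853-88666939, minus strand) was in an exon of LINC00461, which RefSeq now calls MIR9-2HG after it. MIR5087 (chr1:148334479-148334554, minus strand) was in a GENCODE intron of LINC01138, and MIR4273 (chr3:75738280-75738363, plus strand) in a GENCODE intron of LINC00960. In RefSeq LINC01138 spans chr1:148432959-148459920 and LINC00960 chr3:75672281-75679303, so both microRNA genes lie outside the RefSeq genes. No seed was shared between them.
hsa-miR-9-5p: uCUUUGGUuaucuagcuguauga
hsa-miR-9-3p: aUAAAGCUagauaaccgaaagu
hsa-miR-5087: gGGUUUGUagcuuugcuggcaug
hsa-miR-4273: gUGUUCUCugauggacag
The hosts were listed at 0.22 (LINC00461), 1.59 (LINC01138) and 2.44 (LINC00960) log2 CPM. The authors counted on a RefSeq annotation, and by the RefSeq positions used here only LINC00461 holds its microRNA gene. All values are of polyadenylated RNA, and the mature microRNAs were not measured.

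LINC-named genes seldom reached the threshold in these cells, and those that did lay at low levels. Of the 696 listed, 99 (14.2%) reached a mean log2 CPM of 0, beside 399 of 1408 other long noncoding RNA genes (28.3%), 11481 of 16649 protein-coding genes (69%) and 43.8% of all rows. The classes were not formed alike: LINC names counted with or without a GENCODE match, other long noncoding RNAs only with one. Another 8458 rows had no match, of which 12% reached 0, and how many of these are noncoding is not known. LINC names were 2.18% of the rows listed and 0.707% of those that reached 0. The members' levels ran from 0 to 4.98 with a median of 1.64 and quartiles of 0.56 and 2.86. As many as 35 members lay between 0 and 1, 19 between 1 and 2, 21 between 2 and 3, 14 between 3 and 4, and 10 between 4 and 5. No member reached 5, a level reached by 38 of the 399 other long noncoding RNAs (9.52%) and by 51.1% of the coding genes at or above 0. Since the rule itself used this level, these values describe the choice and were not tested.

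**Figure D1:**
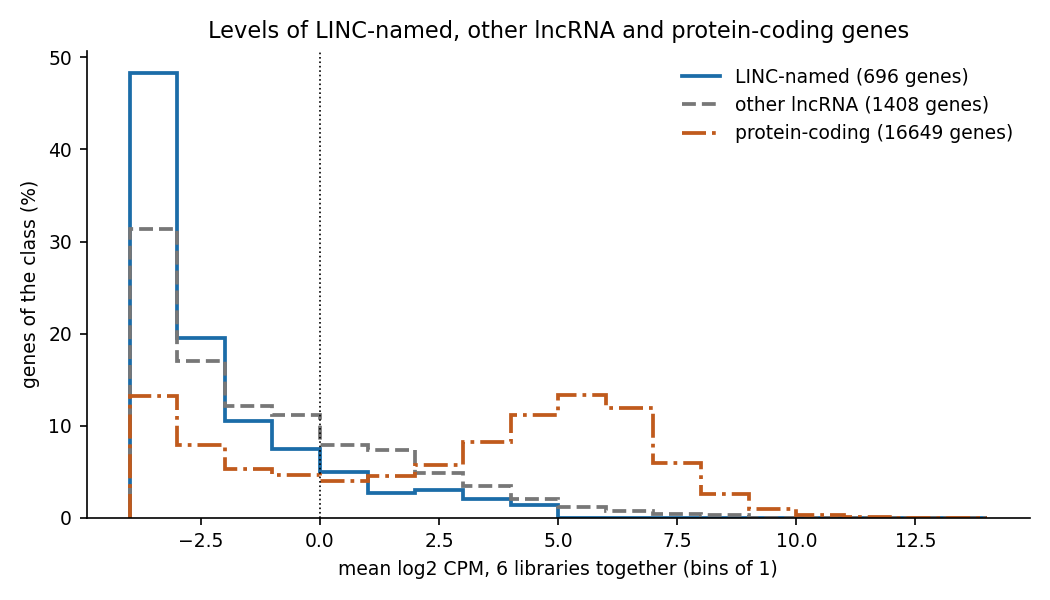
Distribution of mean log2 CPM over the 6 libraries for the 696 LINC-named genes, the 1408 other long noncoding RNA genes and the 16649 protein-coding genes, in bins of 1, as a percent of each class. The dotted line is the threshold at 0, and the LINC-named curve ends below 5 while both others run past it.

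The threshold cut through a continuous range. Just inside it were LINC00265 at 0.1175, LINC01719 at 0.0481, LINC02019 at 0.0158, LINC01301 at 0.0019 and LINC00261 at 0.0014 log2 CPM. LINC00261 is known as an endoderm gene near FOXA2. Just outside were LINC01565 at -0.013, LINC00526 at -0.016, LINC01222 at -0.074, LINC00921 at -0.079 and LINC02232 at -0.138. The remaining LINC-named rows lay lower, down to -3.76, which was also the lowest value of the whole table. All 597 rows under the threshold summed to 114 CPM and the 99 members to 589.3 CPM. Of all LINC-named rows, 336 lay between -4 and -3, close to that lowest value. How far values so low hold counted fragments is not known. A name with a hyphen did not count, and both such rows, LINC-PINT at -0.40 and LINC-ROR at -3.57, were below 0.

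Counts were spread over many members. The top 5 held 22.5% of the members' summed CPM, the top 10 held 36.9% and the top 20 held 57.3%. First on the log2 CPM scale was LINC01578 at 4.98, or 31.5 CPM, which was place 6080 among all rows. It is now named CHASERR and is known to restrain its neighbour CHD2, a chromatin remodeler, in cis. LINC01128 followed at 4.89, LINC00839 at 4.83, LINC00863 at 4.44 and LINC01094 at 4.39. LINC00662 was at 4.31, LINC00205 at 4.05, LINC01934 and LINC02001 both at 4.02, and LINC01366 at 4.01. The next 10 ran from 3.98 to 3.29: LINC01133 (3.98), LINC02210 (3.77), LINC01116 (3.76), LINC01684 (3.67), LINC00909 (3.65), LINC00888 (3.47), LINC00963 (3.42), LINC00667 (3.41), LINC00869 (3.31) and LINC01184 (3.29). A total CPM grows with transcript length, so this order is one of counted fragments and not of molecules.

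**Figure D2:**
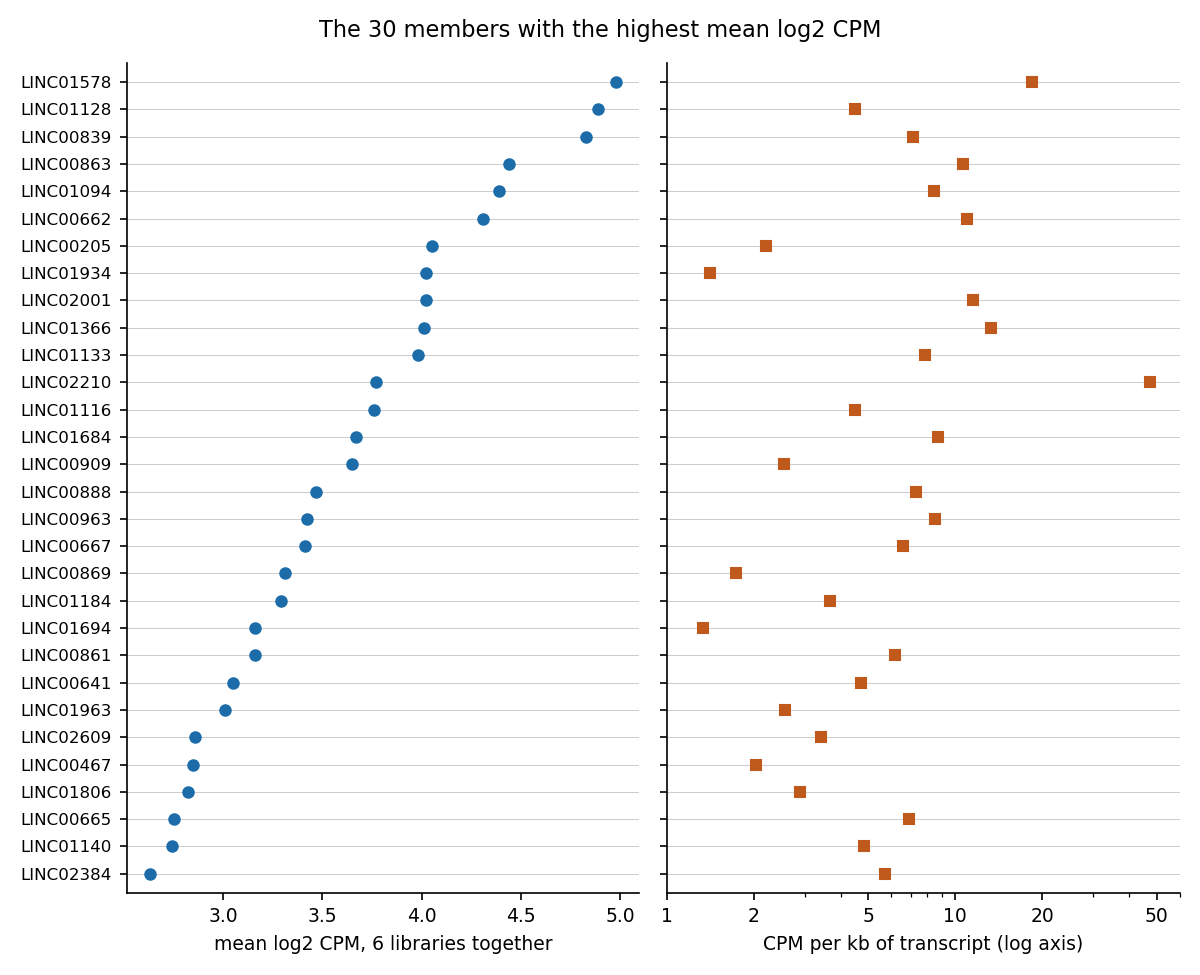
The 30 members with the highest mean log2 CPM (left, 6 libraries together) and the same genes as CPM per kilobase of canonical transcript (right, log axis), 1 point a gene with no error because levels of single libraries were not used. The left column falls from 4.98 for LINC01578 downward, while the right is led by LINC02210 at 47.5 CPM per kb and has LINC01934 at 1.41.

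Per kilobase of transcript the order changed. Lengths were those of the canonical GENCODE transcript, which had a median of 1863 bases over the 98 members matched and ran from 160 bases (LINC00674) to 11533 bases (LINC01934). The median level was 2.04 CPM per kb, with 2.43 for the other long noncoding RNAs and 9.48 for the coding genes at or above 0. Of the 20 highest members by CPM, 13 were among the 20 highest by CPM per kb. LINC01934 fell from place 8 to place 61, at 1.41 CPM per kb, and LINC00205, whose transcript is 7553 bases, went from place 7 to place 44 at 2.2 CPM per kb. LINC00261 was the lowest of all at 0.204 CPM per kb.

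The 10 highest members per kilobase were of 2 kinds, genes with a very short annotated transcript and longer ones. LINC02210 (47.5 CPM per kb, 288 bases), LINC00674 (27.7, 160 bases) and LINC01399 (8.58, 244 bases) are of a pseudogene type in GENCODE. Their rank rested on those lengths: over all annotated exons merged, LINC02210 had 15578 bases and came to 0.879 CPM per kb, and LINC01399 came to 2.6. LINC00674 has 1 GENCODE transcript, so merging could not change its 160 bases or its 27.7. Its RefSeq gene, chr17:68101555-68135929, spans more than the GENCODE gene, chr17:68101908-68114527, so 160 bases may not be the length that was counted. Longer transcripts were those of LINC01578 (18.5), LINC01366 (13.3), LINC02001 (11.5), LINC00662 (11), LINC00863 (10.6), LINC01684 (8.71) and LINC00649 (8.69). LINC00662 had 33198 bases of merged exons, the most of any member, and came to 0.597 CPM per kb over them. LINC01578 came to 4.87 and LINC02001 to 10 CPM per kb.

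**Figure D3:**
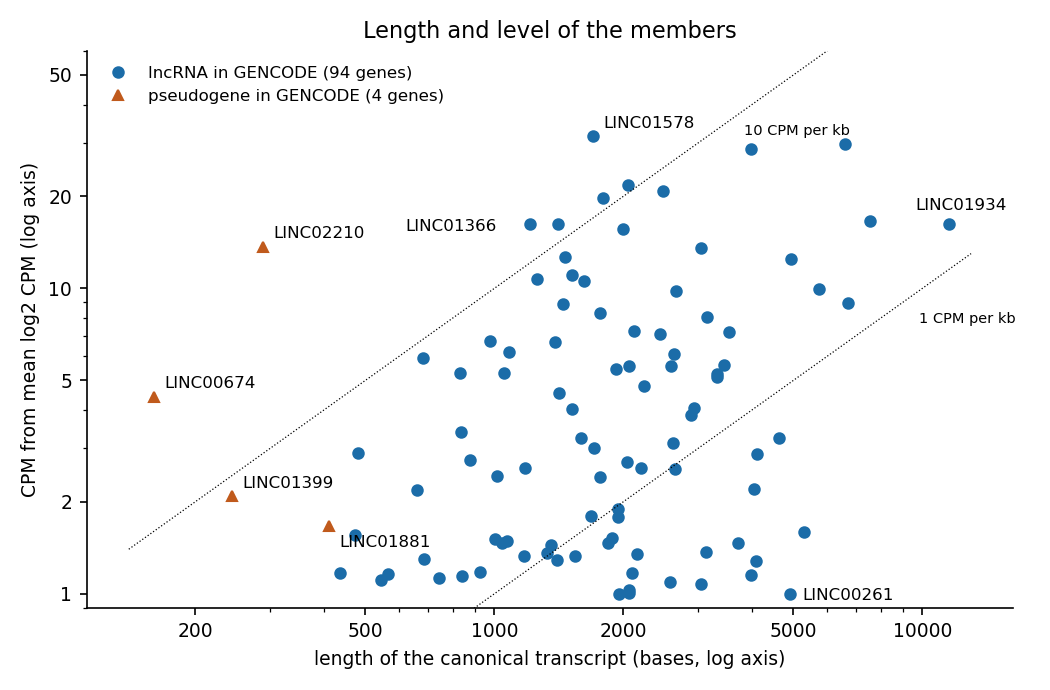
Length of the canonical transcript (bases, log axis) against CPM (log axis) for the 98 members with a GENCODE transcript, with the 4 genes of a pseudogene type as triangles and dotted lines at 1 and 10 CPM per kb. LINC02210 and LINC00674 stand at the short end above the upper line, and LINC01934 at the long end lies just above the lower one.

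Set beside well-known long noncoding RNAs with other names, the members were low. Of 35 such genes looked up by name, 34 were listed, 25 reached 0 and 17 reached 5 log2 CPM, with a median of 4.38 beside the members' 1.64. Highest were SNHG5 (8.97) and GAS5 (8.93), both hosts of small nucleolar RNAs, and NORAD (8.69), which binds Pumilio proteins. Per kilobase of canonical transcript GAS5 stood at 634 CPM per kb, NORAD at 76.7 and the nuclear RNA MALAT1 at 16.6, with LINC01578 at 18.5. Over merged exons LINC01578 came to 4.87 and MALAT1 stayed at 16.6, so that their order rests on the length taken. At the other end HOTAIR, a HOX cluster RNA, was at -3.48 log2 CPM and MIR155HG, a microRNA host known from lymphoid cells, at -3.57. No row was found for HULC.

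LINC-named genes described in cancer or blood were looked up from a list of 10, and 8 were members. LINC01578 and LINC00662 are given above. LINC00467 was at 2.85, LINC00665 at 2.75 and LINC01138 at 1.59 log2 CPM. LINC00339, which lies beside CDC42, was at 0.37, LINC00173, described in granulocyte development, at 0.23 and LINC00461 at 0.22. LINC00511 was listed at -3.11 and LINC00632, the host of the circular RNA CDR1as, at -3.76, the lowest value of the table.

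The annotation had moved on for some names. By symbol 90 members matched GENCODE 44 and 8 more matched through a RefSeq synonym, of which 94 were of type lncRNA and 4 of a pseudogene type. LINC01137, at 1.16 log2 CPM and now named LITATS1, was matched only in RefSeq. In RefSeq 11 members had another current name, among them CHASERR (LINC01578), SNHG30 (LINC02001), ZNF407-AS1 (LINC00909), SNHG33 (LINC00888), SLC12A2-DT (LINC01184), ICMT-DT (LINC00337), ERCC6L2-AS1 (LINC00476) and ZNF567-DT (LINC01534). In such names SNHG marks a small nucleolar RNA host, AS an antisense gene and DT a gene divergent from a coding start. One row was spelled LINC002481 and matched LINC02481. No member was protein-coding in either annotation. The longest open reading frame of the canonical transcript had a median of 80.5 codons, and 28 of 98 (28.6%) had one of at least 100 codons, with 36.6% for the other long noncoding RNAs and 98.1% for the coding genes. LINC00869 had the longest, 280 codons, and 52.7% of its transcript matched the coding gene FAM91A1 (6.74 log2 CPM).

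The members lay on 23 chromosomes, with 17 on chromosome 1, 10 on chromosome 2 and 8 on chromosome 5. Spliced genes prevailed: 10 members had 1 exon, 13 had 2 and 75 had at least 3 exons in the canonical transcript, with a median of 4 exons and 23 in LINC00174. A poly(A) signal, AATAAA or ATTAAA, was in the last 50 bases of 52 of 98 canonical transcripts (53.1%). This was close to the 56.1% of the other long noncoding RNAs and below the 82.4% of coding genes. The libraries held poly(A) RNA, so an RNA without a tail would be counted less, and how far that sets these levels was not tested.

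Small nucleolar RNA genes, whose products guide the modification of other RNAs, were in 2 members. SNORD7 (chr17:35573657-35573753, plus strand) was in the intron of LINC02001 (SNHG30, 4.02 log2 CPM), a gene of 2 exons at chr17:35568050-35574900. LINC00888 (SNHG33, 3.47 log2 CPM; chr3:183447582-183456017, plus strand) held 4 such genes, among them SNORA63D in an intron and SNORA63E in an exon. Both hosts were among the 20 highest members by log2 CPM.

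Near coding genes, the members were mostly neither far away nor overlapping. By GENCODE positions the median distance to the nearest coding gene was 9628 bases, 21 members overlapped a coding gene and 15 lay over 100 kb from any. LINC00662 was among the remote ones, 1411314 bases from UQCRFS1, a subunit of respiratory complex III, and LINC01684 lay 1037713 bases from MRPL39, a mitochondrial ribosomal protein gene. Chosen after the values were seen, for neighbours known in blood cells, LINC01426 (2.61 log2 CPM; chr21:34745756-34784886) ended 2914 bases from RUNX1, a master regulator of blood formation at 9.03 log2 CPM. LINC00461 lay 26059 bases from MEF2C (9.15), a transcription factor of megakaryocytes and lymphocytes, and LINC01366 (chr5:170307722-170335508) 9906 bases from LCP2 (7.97), an adaptor of platelet and lymphocyte receptors. The RefSeq gene LINC01366 starts only at 170331393, farther from LCP2. LINC01094 (chr4:78638780-78683185) lay 28328 bases from ANXA3 (5.61), an annexin. Distances of this kind do not show that a pair is regulated together.

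Some members began close to the start of a gene on the other strand, by GENCODE starts. Such a start on the other strand lay within 1 kb in 27 of 98 members (27.6%), beside 34% of coding genes, 45.9% of other long noncoding RNAs and 32% of all matched genes at or above 0. In 15 of the 27 the other start was upstream, the divergent arrangement of a bidirectional promoter. The same held for 2539 of 4156 matched genes, 2395 of 3900 coding genes and 106 of 183 other long noncoding RNAs with such a start. Among the members, the 5 closest were LINC00467 with ENSG00000287033 (19 bases), LINC00853 with CYP4A22-AS1 (21 bases), LINC00174 with LINC03011 (41 bases), LINC00680 with ENSG00000225096 (63 bases) and LINC01547 with SLX9 (84 bases). LINC00174 begins at 66493566 in GENCODE but at 66400408 in RefSeq, so its closeness is of the GENCODE start only. Of these partners, CYP4A22-AS1 was listed at 0.58 and SLX9 at 6.75 log2 CPM. LINC00853 itself was at 1.13, LINC00174 at 1.69 and LINC00680 at 1.70.

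For 8 of 98 members the other start within 1 kb belonged to a coding gene. This was so for 145 of 399 other long noncoding RNAs and 2285 of 12986 matched genes at or above 0. In 7 of the 8 members' pairs the coding gene was higher per kilobase of canonical transcript. Coding genes at or above 0 had a median of 9.48 CPM per kb and the members 2.04, so this order is not particular to the pairs. Pairs and distances rest on GENCODE starts, while the authors counted on a RefSeq annotation, whose starts can differ. LINC01547 (chr21:44932814-44939941, minus strand) stood at 1.55 CPM per kb and SLX9, a ribosome biogenesis factor, at 121, a ratio of 77.9. The start of SLX9, at 44940025, is inside the promoter window printed above for LINC01547. LINC01301 stood at 0.512 and RAB2A, a GTPase of vesicle traffic, at 33.2 CPM per kb, 121 bases away, a ratio of 64.9. In RefSeq, however, LINC01301 begins at 60413818, far from the RAB2A start at 60516936, so its level need not be of an RNA starting there. Less far apart were LINC01089 (2.65) and SETD1B (9.95), a histone methyltransferase 103 bases away, and LINC00205 (2.2) and POFUT2 (14.4), an O-fucosyltransferase 137 bases away. In RefSeq LINC01089 begins at 121802946, just over 1 kb from the SETD1B start at 121804009.

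LINC01534 stood at 0.396 and its partner ZNF567, a zinc finger gene 144 bases away, at 4.1 CPM per kb. For LINC01521 (0.916) and the zinc finger gene PATZ1 (11.6) the distance was 431 bases. LINC00649 (8.69) and ATP5PO (109), a subunit of ATP synthase, began 280 bases apart in GENCODE. The coding start was inside or downstream, so that the GENCODE genes overlap. In RefSeq LINC00649 begins only at 33931122, away from the ATP5PO start at 33915814. The exception was LINC01184 at 3.69 CPM per kb, above the 3.01 of SLC12A2, an ion cotransporter 594 bases away, a ratio of 0.815. Its direction turned with the length taken: over merged exons LINC01184 came to 0.592 and SLC12A2 to 1.94 CPM per kb, and with the longest transcripts to 1.69 and 3.01, so that the coding gene was then higher in 8 of 8 pairs. The median ratio over the 8 pairs was 11.4, and the paired members had a median of 1.87 CPM per kb with 2.04 for the members outside pairs.

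**Figure D4:**
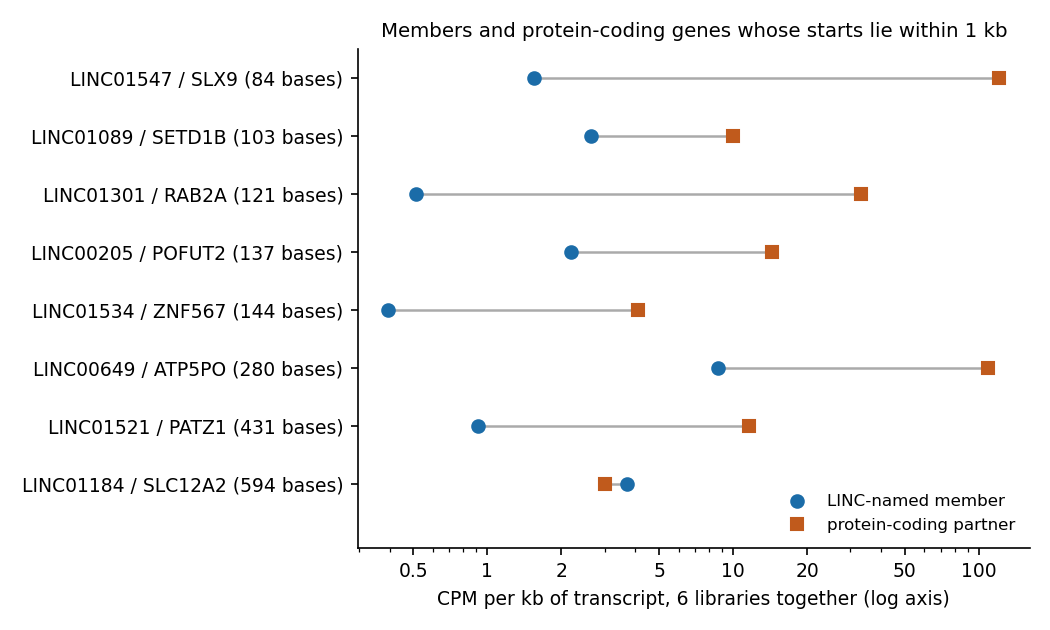
CPM per kilobase of transcript (log axis, 6 libraries together) of 8 members (circles) and the coding gene on the other strand whose GENCODE start lies within 1 kb (squares), ordered by the distance between starts. By RefSeq, LINC01301, LINC00649 and LINC01089 begin more than 1 kb from the coding start. The square is to the right in 7 pairs, and in the lowest row LINC01184 at 3.69 is to the right of SLC12A2 at 3.01, an order that turns over merged exons (0.592 and 1.94).

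Counts of some members can hold fragments of another gene. In GENCODE, exons overlapped a coding or long noncoding RNA gene on the other strand in 40 members and one on the same strand in 12. Overlaps with other types of gene, such as pseudogenes, were not counted. The RefSeq models that the authors counted can differ from these. The kit keeps the strand, but whether the counting used it is not given in the sources used here. Coding genes at or above 0 overlapped 8 members on the other strand, such as TM9SF2 (7.20 log2 CPM) with LINC01232 (0.59) and CSTF3 (5.79) with LINC00294 (2.39), named here after their values were seen. On the same strand a coding gene overlapped 6 members, among them CHD2 (6.39) with LINC01578, NUTM2D (1.89) with LINC00863 and RHOF (3.00) with LINC01089. The GENCODE gene of LINC01578 spans chr15:92819540-92899701 while RefSeq starts it at 92882843.

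Close copies in GENCODE transcripts of other genes, at 95% identity or more over at least 50% of the canonical transcript, were found for 12 members. Genes overlapping the member were left out, and sequence outside annotated transcripts was not searched. Among the named ones, 95.4% of LINC00863 matched NUTM2E (-1.27 log2 CPM), 94.7% of LINC00680 matched GUSBP1 (2.68), 65.6% of LINC00674 matched SMURF2 (4.86) and 75.7% of LINC00265 matched another noncoding gene. Levels of these members are uncertain, because reads of both copies may have been split or dropped. In 45 members there was neither an exon overlap with a coding or long noncoding RNA gene nor such a copy. Among the 20 highest by CPM these were LINC00839, LINC01094, LINC00205, LINC01133, LINC01684, LINC00909 and LINC00888.

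RefSeq promoters were found for 77 members, and 40 of them (51.9%) were CpG-rich, taken as a CpG ratio over 0.6 and a GC content over 50%. The CpG ratio is the number of CG dinucleotides over that expected from the base content, which is low where methylation in the germline has removed them. Its median was 0.653 in the members, 0.333 in the 407 promoters of LINC-named genes under the threshold, and 0.845 in the 9501 of coding genes at or above 0. The CpG-rich share was 23.6% under the threshold, 80.6% for the coding genes and 46.6% for all 27305 promoters. The members lay between the LINC-named genes under the threshold and the coding genes on both measures. Among the members, the median level was 1.51 log2 CPM for the 40 CpG-rich promoters and 1.53 for the other 37.

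**Figure D5:**
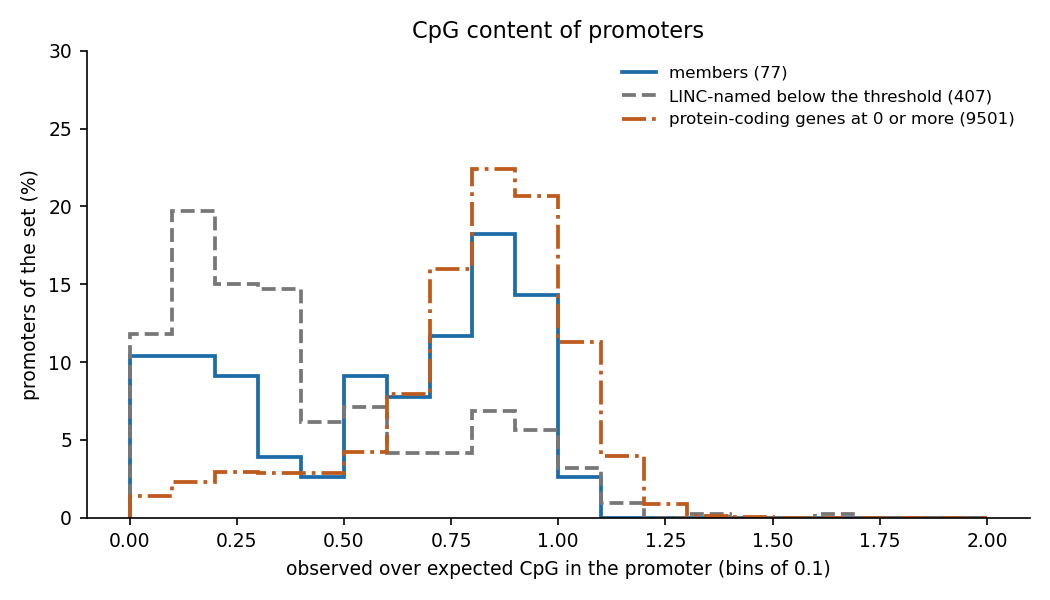
Observed over expected CpG in promoters (250 bases before to 50 after the start), in bins of 0.1, as a percent of the 77 members, of the 407 LINC-named genes under the threshold and of the 9501 protein-coding genes at or above 0. The members reach up to a ratio of 1.1 and have a median of 0.653, with the median of the LINC-named genes under the threshold to the left of it (0.333) and that of the coding genes to the right (0.845).

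Short motifs were searched on both strands in these windows. GGGCGG, the GC box bound by Sp1, was in 46.8% of member promoters, 26% of LINC-named promoters under the threshold, 70.4% of coding promoters and 44.5% of all promoters. CCAAT, bound by NF-Y, was in 45.5% of member and 35.7% of all promoters, with 37.4% of coding promoters, and CCGGAA, a core of ETS factor sites, in 20.8% of member, 30.9% of coding and 17.6% of all promoters. TATAAA, the letters of a TATA box, was in 14.3% of member, 15% of LINC-named promoters under the threshold, 5.36% of coding and 12% of all promoters. Its place in the window was not taken into account, so these are not shares of TATA-box promoters. Among the members, TATAAA was in 4 of the 40 CpG-rich promoters and in 7 of the other 37. AGATAA, the letters read by GATA factors, was in 10.4% of member, 15.5% of LINC-named promoters under the threshold, 5.16% of coding and 10.5% of all promoters. TGACGTCA was in 3 of 77 members (3.9%), 3.2% of coding and 1.97% of all promoters. It was in 0.737% of LINC-named promoters under the threshold, and the difference was not tested. The 3 members with it lay just above that threshold. The spaced repeat of interferon response elements was in 4 of 77 members (5.19%), 3.02% of coding and 3.66% of all promoters. GGGCGG can overlap itself, and no other overlap between motifs was removed. A match describes the letters in the window and not binding.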

How the data were processed

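Total RNA of 6 HEL samples (3 shCtrl, 3 shTMIGD2) was sequenced after poly(A) enrichment. Per the submitters' processing notes and the study's methods, the authors aligned reads with STAR 2.6.1b to hg38, counted fragments per gene with HTSeq 0.6.1 on a RefSeq annotation and named DESeq2 3.11 and edgeR for the tests. The deposited level is a log2 CPM averaged by the authors over all 6 libraries. Its normalization, filter and strand setting are not given in the sources used here. Another 4 columns hold the authors' own comparison of the groups (log2 fold change, F, p-value and FDR) and were not used. The planned test of shTMIGD2 against shCtrl needs counts per library and was not run. Depth per library is unknown, and no errors could be given. For the same reason no p-value is printed.

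From the level, CPM was computed as 2 to its power and divided by the length of the Ensembl canonical transcript of GENCODE 44 on GRCh38, the same assembly as hg38. The CPM of all rows summed to 1002514. Of all names, 22954 matched GENCODE by symbol and 581 through a synonym of the RefSeq GRCh38.p14 table. Promoters and microRNAs are RefSeq's, with the farthest upstream start taken where a gene had several. Copies were sought among GENCODE 44 transcripts with BLAST 2.17.0 (megablast, 95% identity, 50% of the transcript). The remaining steps used Python 3.11.15, with figures by matplotlib 3.10.9. The motif search was tested on simulated sequences, and the functions for merged lengths, reading frames, base content and medians on known answers. Name matching, distances, overlaps and copies were not tested in this way.

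Genes were named by rule: the 20 members highest in log2 CPM, the 10 highest per kilobase, 5 on either side of the threshold, members now protein-coding, those on a list of 10 names, the 5 nearest to a start on the other strand, and the longest and shortest. The members and lists were chosen with earlier results of these data known. The alternatives were other thresholds, name patterns, transcript lengths, windows, references and motif strands.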

Additional observations from a re-analysis of the deposited data

How the results depend on the processing

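With a threshold of 1 on the log2 CPM scale 64 LINC-named genes were left in place of 99, and with -1 there were 151. Admitting names with a hyphen left 99. The median length of 1863 bases became 2899 with the longest transcript of each gene, 530 with the shortest and 5470 with all exons merged, and the median level of 2.04 CPM per kb became 1.34, 4.83 and 0.875. Lengths thus set the level per kilobase by construction. Starts on the other strand were found for 17 members within 500 bases and 41 within 5 kb, in place of 27 within 1 kb. In the pairs with a coding gene, merged exons or longest transcripts for both, added after the data were seen, put the coding gene higher in 8 pairs in place of 7. With RefSeq starts, an alternative added after the data were seen, 18 of 77 were within 1 kb (23.4%). Searching the strand of the gene only gave TATAAA in 9.09%, CCAAT in 27.3%, GGGCGG in 31.2%, CCGGAA in 13%, AGATAA in 6.49% and the interferon response element in 3.9% of member promoters, while the palindrome TGACGTCA stayed at 3.9%. No member was protein-coding in either reference.

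No paired analysis was possible because the level is a mean over all 6 libraries and carries no replicate number. Tests with DESeq2, its size factors, no filter, the replicate block and each library left out were for the same reason not run. How far the levels vary between libraries or hairpins, and at what depth, is not known.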
